A study of Sus scrofa with 4 samples.

Results

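The genes described here encode the pig major histocompatibility complex (MHC), called swine leukocyte antigen (SLA), and the proteins that load its molecules with peptide. By the selection rule they were the rows of the deposited gene table whose symbol starts with SLA- plus 20 genes named for antigen presentation. The rule found 24 of the 22309 rows. TAPBP matched no row by symbol, and CALR matched 2 rows. The second CALR row, an assembled gene, is called CALR-like here. Only 4 deposited symbols started with SLA-, and all 4 were class II genes, so the rule held no class I heavy chain. A further 12 class I and class II chain rows were therefore added through the table's own annotation and the RefSeq gene table, which gave 36 rows in all. Of these, 33 passed the filter on low counts, and all 24 rows of the rule were among them. The chain rows were 5 of class I and 11 of class II.

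MHC class I molecules, made of a heavy chain and beta-2-microglobulin, stand on most nucleated cells and show peptides that the proteasome cuts from proteins of the cytosol. MHC class II molecules, made of an alpha and a beta chain, stand mainly on macrophages, dendritic cells and B cells and show peptides from engulfed proteins. They are assembled with the invariant chain CD74 in the endoplasmic reticulum and receive their peptide in endosomes. In the ovary, macrophages and lymphocytes populate the corpus luteum, the gland that dominates the ovary in diestrus, and luteal cells of the cow also bear class II molecules. The roles given below were mostly worked out in human and mouse cells.

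Messenger RNA of whole ovaries, collected in diestrus, was sequenced from 2 samples of sows overexpressing leptin and from 2 samples of wild-type (WT) sows. Leptin is the hormone by which fat cells report fat stores. The overexpressing sows were F2-generation offspring of crosses that began with re-cloned transgenic boars and Duroc/Landrace/Yorkshire sows, and they were chosen by tests for the transgene and its product. Neither the promoter that drives the transgene nor the age of the sows is given in the sources used here. Nor is it stated that a group's libraries stem from different animals, and the p-values cover no more than the variation among the libraries at hand, part of which may be technical.

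Library totals were 16563381 and 16565008 expected counts in leptin overexpression replicates 1 and 2, against 16493123 and 16797528 in WT replicates 1 and 2. LEP itself had 55 and 124 counts in the leptin overexpression libraries, against 0 and 3 in the WT libraries, which is the direction of the labels. Its adjusted p was 0.198 with edgeR's quasi-likelihood test. That test called 4 of 13937 genes, all higher in leptin overexpression. Levels are given as FPKM, which is scaled to transcript length and library size, and can be compared between genes. Fold changes are log2, leptin overexpression minus WT, with standard errors (SE), from TMM-scaled counts, called CPM. The median of all genes tested was -0.01 on this scale and -0.30 on the FPKM scale, so FPKM values run lower in leptin overexpression by that much for a middling gene.

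Most class II chains, among them SLA-DRA, SLA-DQA1 and both DM chains, had lower values in the leptin overexpression ovaries, while class I genes lay on both sides of 0, and no single gene passed the test. edgeR's quasi-likelihood test with Benjamini-Hochberg adjustment over all genes called 0 of the 33 tested members, where it called 0.0% of all genes as lower and 0.0287% as higher. DESeq2 also called 0 members, against 1.47% of all genes lower and 0.718% higher. At an unadjusted edgeR p under 0.05 there were 5 members, SLA-DRA, SLA-DMA, SLA-DMB, SLA-DOA and NLRC5, all lower in leptin overexpression. Of all genes, 5.32% were lower and 4.04% higher by that measure. A test of the FPKM values with limma-trend on log2(FPKM + 1) called 3 members, SLA-DRA, SLA-DQA1 and SLA-DMA, all lower, where it called 2.68% of all genes as lower and 0.646% as higher.

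Log2 fold changes were below 0 for 24 of the 33 members, against 50.7% of all genes tested. The count was 8 of 9 class II chains and 11 of 17 class I members, a group that holds the heavy chains, B2M, peptide loading and immunoproteasome genes. The median was -1.03 for the class II chains and -0.34 for the class I members. In CPM, both leptin overexpression libraries lay below both WT libraries for 9 of the 33 members, against 22.9% of all genes, and above them for 3, against 22.2%. Those 9 were SLA-DQA1, SLA-DRA, SLA-DMA, SLA-DMB, SLA-DOA, MSTRG.17488, CD74, PSMB8 and NLRC5. The 3 higher ones were PDIA3, CALR and PSME2. In whole tissue, fewer cells of a type and less RNA per cell cannot be told apart, and this applies to each value below.

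**Figure D1:**
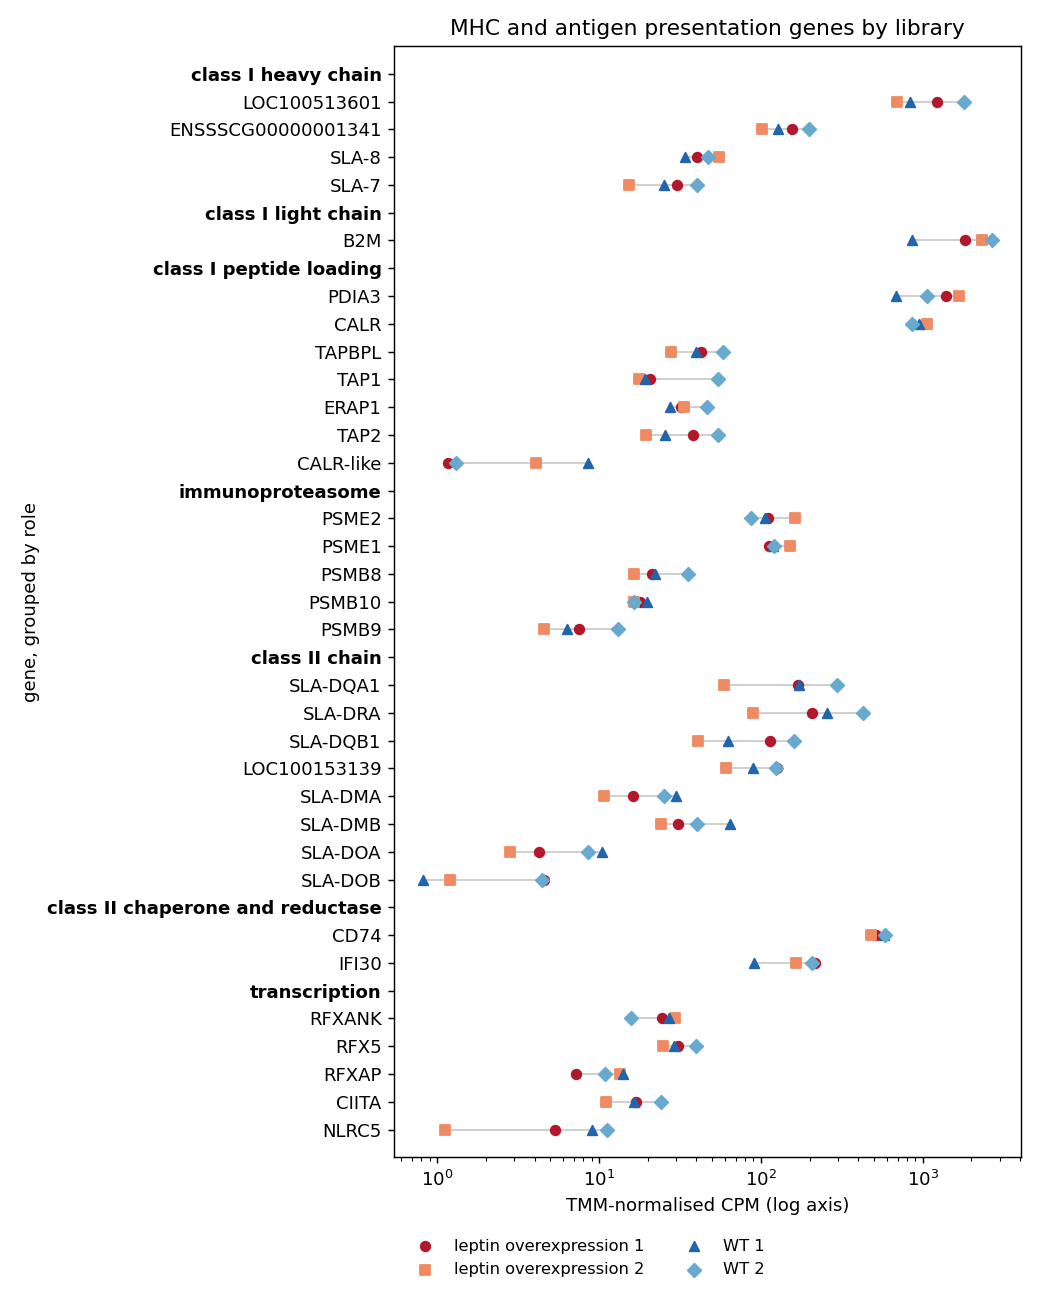
TMM-normalised CPM (log axis) of the tested members in each library, grouped by role and ordered within a role by mean FPKM; circles and squares are leptin overexpression replicates 1 and 2, triangles and diamonds WT replicates 1 and 2, and a grey line joins the lowest and highest library. MSTRG.17488 is left out because leptin overexpression replicate 2 had a count of 0. Leptin overexpression replicate 2 is the lowest library for SLA-DQA1, SLA-DRA, SLA-DQB1, LOC100153139, SLA-DMA, SLA-DMB, SLA-DOA and NLRC5.

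The DR molecule is the main class II molecule that shows peptides to T helper cells. SLA-DRA, its alpha chain, had 63.2 and 19.0 FPKM in the leptin overexpression libraries, against 122 and 130.2 FPKM in the WT libraries. Both leptin overexpression libraries lay below both WT libraries, and replicate 2 was the lowest of the 4. The log2 fold change was -1.21 (SE 0.52, n = 2 each), with an adjusted p of 0.529 by edgeR's quasi-likelihood test, 0.294 by DESeq2 and 0.00217 by limma-trend on FPKM. For SLA-DRA the transcript length implied by the ratio of count to FPKM was 1.34 times as long in leptin overexpression replicate 2 as in WT replicate 1, and 1.07 times in leptin overexpression replicate 1. Its FPKM and its count therefore do not move in the same proportion.

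The partner of SLA-DRA lay closer to 0. LOC100153139, which the deposited table describes as a DR beta chain-like gene, had 74.3 and 29.6 FPKM in leptin overexpression and 69.7 and 69.4 FPKM in WT. Only leptin overexpression replicate 2 lay apart, and the groups overlapped, with a log2 fold change of -0.20 (SE 0.45, adjusted p 0.887 by edgeR). The alpha to beta ratio in FPKM was 0.851 and 0.641 in leptin overexpression, against 1.75 and 1.88 in WT. The same ratio in expected counts, which is not scaled to length, was 1.64 and 1.46 in leptin overexpression and 2.87 and 3.43 in WT, so the groups did not overlap on either scale. A second DR beta row, the assembled gene MSTRG.17488, was close to the lower limit of detection. It had 1.13 and 0 FPKM in leptin overexpression and 2.01 and 2.50 FPKM in WT, from expected counts of 17.1 and 0 in leptin overexpression and 30.3 and 38.3 in WT.

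The DQ molecule is the other classical class II molecule. SLA-DQA1, its alpha chain, had 84.3 and 25.9 FPKM in leptin overexpression and 124 and 158 FPKM in WT. In CPM the margin between the groups was narrow, at 169.7 in leptin overexpression replicate 1 against 173 in WT replicate 1. The log2 fold change was -1.03 (SE 0.55), with an adjusted p of 0.580 by edgeR and 0.0170 by limma-trend on FPKM. SLA-DQB1, the beta chain, had 72.3 and 16.5 FPKM in leptin overexpression and 57.0 and 98.5 FPKM in WT, which overlapped. Its log2 fold change was -0.53 (SE 0.60, adjusted p 0.772 by edgeR). The implied transcript length of SLA-DQB1 was 1.36 times as long in leptin overexpression replicate 2 as in WT replicate 1. SLA-DQB1 was the only class II chain besides LOC100153139 and SLA-DOB whose groups overlapped among the 9 tested.

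The DM molecule does not show peptides itself, but removes the invariant chain remnant from DR and DQ and edits their peptides in the endosome. SLA-DMA had 9.11 and 5.47 FPKM in leptin overexpression and 29.0 and 18.5 FPKM in WT. SLA-DMB had 7.67 and 5.24 FPKM in leptin overexpression and 23.1 and 10.8 FPKM in WT. For both chains the groups did not overlap and WT replicate 1 was the highest library. Log2 fold changes were -1.03 (SE 0.41) for SLA-DMA and -0.93 (SE 0.39) for SLA-DMB, and edgeR's adjusted p-values were 0.508 (SLA-DMA) and 0.524 (SLA-DMB). SLA-DMA had an adjusted p of 0.0209 by limma-trend on FPKM, and its implied transcript length was 1.2 and 1.15 times as long in leptin overexpression replicates 1 and 2 as in WT replicate 1. The ratio of alpha to beta chain of DM stayed between 1.04 and 1.71 in the 4 libraries, at 1.19 and 1.04 in leptin overexpression against 1.26 and 1.71 in WT.

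The DO molecule binds DM and restrains it, chiefly in B cells and some dendritic cells. SLA-DOA had 1.31 and 0.760 FPKM in leptin overexpression and 4.67 and 2.86 FPKM in WT, a log2 fold change of -1.43 (SE 0.52), which had the smallest edgeR adjusted p of the members, 0.455. The groups did not overlap. SLA-DOB had 2.21 and 0.50 FPKM in leptin overexpression and 0.570 and 2.33 FPKM in WT. It was high in replicate 1 of leptin overexpression and in replicate 2 of WT, and its log2 fold change was 0.14 (SE 0.96, adjusted p 0.968 by edgeR). Fold changes of the DO chains thus lay on opposite sides of 0. Their FPKM ratio, alpha over beta, was 0.593 and 1.52 in leptin overexpression and 8.19 and 1.23 in WT.

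The other class II rows, ENSSSCG00000001458 and ENSSSCG00000031336, were at or near 0 in all 4 libraries and did not pass the filter.

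**Figure D2:**
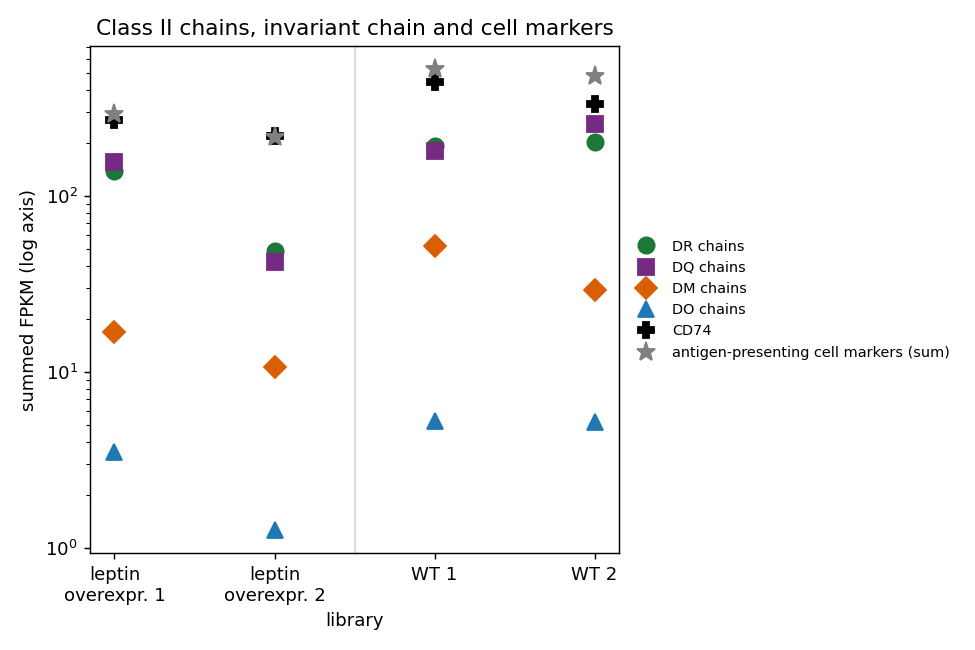
Summed FPKM (log axis) of the chains of each class II molecule, with CD74 and the summed FPKM of the antigen-presenting cell markers, in the 2 leptin overexpression libraries (left) and the 2 WT libraries (right). On this scale all 6 quantities are lower in both leptin overexpression libraries than in both WT libraries, while in CPM the DQ sum overlaps; the DR sum is 139 and 48.6 FPKM in leptin overexpression and 193 and 202 FPKM in WT.

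Added over their chains, DR had 139 and 48.6 FPKM in leptin overexpression and 193 and 202 FPKM in WT. DQ had 157 and 42.4 FPKM in leptin overexpression and 181 and 256 FPKM in WT. The DM sum was 16.8 and 10.7 FPKM in leptin overexpression and 52.1 and 29.3 FPKM in WT, and the DO sum was 3.52 and 1.26 FPKM in leptin overexpression and 5.24 and 5.19 FPKM in WT. In FPKM both leptin overexpression libraries lay below both WT libraries for each of these 4 sums. In CPM this held for DR, DM and DO, while the DQ sum overlapped, at 284 and 101 in leptin overexpression and 236 and 456 in WT. DR and DQ together made up 88.3% to 93.6% of class II chain FPKM in leptin overexpression and 86.7% to 93.0% in WT.

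CD74, the invariant chain that guides class II molecules to endosomes, was the most abundant class II member. It had 271 and 220.2 FPKM in leptin overexpression, against 444 and 334 FPKM in WT, without overlap. In CPM the gap was small, at 513 and 478 in leptin overexpression and 579 and 584 in WT, and the log2 fold change was -0.23 (SE 0.43, adjusted p 0.865 by edgeR). CD74 per class II chain was 0.859 and 2.14 in leptin overexpression and 1.03 and 0.678 in WT, as a ratio of FPKM. Leptin overexpression replicate 2 stood above the other 3 libraries by this ratio. IFI30, the lysosomal reductase that opens disulfide bonds of engulfed proteins, had 129.6 and 86.8 FPKM in leptin overexpression and 78.2 and 134 FPKM in WT, with a log2 fold change of 0.36 (SE 0.48, adjusted p 0.806 by edgeR).

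Among the class I heavy chains, the largest share came from LOC100513601, a row described as a class I antigen alpha-like chain. It made up 67.4% and 59.4% of class I heavy chain FPKM in leptin overexpression and 65.2% and 71.0% in WT. It had 215 and 104 FPKM in leptin overexpression and 229 and 347 FPKM in WT. In CPM the groups overlapped, because WT replicate 1, at 836, lay between leptin overexpression replicates 1 and 2, at 1226 and 696. The log2 fold change was -0.45 (SE 0.57, adjusted p 0.794 by edgeR).

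The row ENSSSCG00000001341, annotated as a class I chain without a symbol, had 67.3 and 38.1 FPKM in leptin overexpression and 77.2 and 90.4 FPKM in WT. SLA-7 and SLA-8 are pig class I genes of the non-classical kind. SLA-7 had 15.2 and 6.73 FPKM in leptin overexpression and 18.6 and 23.0 FPKM in WT. SLA-8 had 21.7 and 26.7 FPKM in leptin overexpression and 26.4 and 28.1 FPKM in WT, and it was the only one of the 4 tested heavy chains that was not lowest in leptin overexpression replicate 2. In CPM the groups of all 4 overlapped, and their log2 fold changes lay between -0.53 and 0.23. The other class I row, ENSSSCG00000024161, had 0.320 FPKM or less in every library and was not tested.

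Reads of MHC genes are hard to place, because the genes resemble each other and differ between animals. Counts with a fractional part, which the authors' counting gives where reads were divided between similar genes or transcripts, stood in all 4 tested class I heavy chains and in 4 of the 9 tested class II chains, SLA-DQA1, SLA-DQB1, LOC100153139 and MSTRG.17488, against 23.6% of all tested genes. The split of reads among these rows is uncertain. SLA-DRA, SLA-DMA, SLA-DMB, SLA-DOA and SLA-DOB had whole counts in all libraries.

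B2M, the light chain of every class I molecule, was the most abundant of the members. It had 2059.8 and 2137 FPKM in leptin overexpression and 1439.6 and 3399 FPKM in WT. The WT libraries were the lowest and the highest of the 4, and the log2 fold change was 0.23 (SE 0.63, adjusted p 0.909 by edgeR). B2M per heavy chain was 6.45 and 12.1 in leptin overexpression and 4.10 and 6.96 in WT, as a ratio of FPKM.

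The peptide loading genes did not all lie on the same side. PDIA3, the disulfide isomerase of the loading complex, had 651 and 689.8 FPKM in leptin overexpression and 466 and 539.8 FPKM in WT, without overlap, and its log2 fold change of 0.81 (SE 0.50) was the highest of the members, with an adjusted p of 0.607 by edgeR. CALR, the chaperone calreticulin, had 502 and 450.4 FPKM in leptin overexpression and 668 and 452 FPKM in WT. Its CPM was higher in both leptin overexpression libraries, at 1028 and 1056 against 947 and 858 in WT, so the direction of CALR depended on the scale. Both proteins also serve protein folding outside antigen presentation.

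TAP1 and TAP2 form the pump that carries peptides into the endoplasmic reticulum. TAP1 had 7.24 and 5.44 FPKM in leptin overexpression and 9.70 and 20.5 FPKM in WT, with a log2 fold change of -0.94 (SE 0.51, adjusted p 0.582 by edgeR). WT replicate 2 stood apart, and without it the TAP1 value was -0.02. TAP2 had 7.80 and 3.50 FPKM in leptin overexpression and 7.64 and 11.6 FPKM in WT, which overlapped. TAPBPL, a peptide editor of class I molecules, had 13.2 and 7.53 FPKM in leptin overexpression and 17.4 and 19.1 FPKM in WT. ERAP1, which trims peptides to length, had 6.86 and 6.21 FPKM in leptin overexpression and 8.49 and 10.7 FPKM in WT. The log2 fold changes of these other 3 genes were -0.47 (TAP2), -0.47 (TAPBPL) and -0.18 (ERAP1). CALR-like stayed at 3.16 FPKM or less in every library and was highest in WT replicate 1.

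The immunoproteasome members comprise subunits and activators. PSMB8, PSMB9 and PSMB10 are the catalytic subunits that replace the standard ones under interferon. PSMB8 had 18.3 and 9.22 FPKM in leptin overexpression and 24.9 and 30.1 FPKM in WT, without overlap, with a log2 fold change of -0.62 (SE 0.41, adjusted p 0.622 by edgeR). PSMB9 had 5.95 and 1.88 FPKM in leptin overexpression and 7.59 and 11.5 FPKM in WT, but its CPM overlapped, and its implied transcript length was 1.75 times as long in leptin overexpression replicate 2 as in WT replicate 1. PSMB10 had 13.2 and 9.75 FPKM in leptin overexpression and 18.7 and 12.4 FPKM in WT, with a log2 fold change of -0.07 (SE 0.39). Summed over the 3 subunits, FPKM was 37.4 and 20.9 in leptin overexpression and 51.2 and 54.0 in WT.

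PSME1 and PSME2 form the activator ring PA28 that opens the proteasome. PSME2 had CPM of 110.5 and 162 in leptin overexpression and 106 and 86.5 in WT, so the groups did not overlap, while its FPKM of 125 and 157 in leptin overexpression and 171 and 102 in WT overlapped. Its log2 fold change was 0.50 (SE 0.39, adjusted p 0.669 by edgeR). PSME1 had 102 and 119.8 FPKM in leptin overexpression and 155 and 118 FPKM in WT, with a log2 fold change of 0.13 (SE 0.38).

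The regulators of MHC transcription were measured at low levels. NLRC5, which switches on class I genes, had 0.750 and 0.140 FPKM in leptin overexpression and 1.83 and 1.68 FPKM in WT, without overlap. Its log2 fold change was -1.63 (SE 0.71), with an adjusted p of 0.532 by edgeR, and it had 82 and 15 counts in leptin overexpression against 200 and 187 in WT. CIITA, which switches on class II genes, had 1.97 and 1.10 FPKM in leptin overexpression and 2.70 and 3.08 FPKM in WT. Its CPM overlapped, and its log2 fold change was -0.53 (SE 0.43, adjusted p 0.677 by edgeR).

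RFX5, RFXANK and RFXAP form the complex that binds the promoters of class I and class II genes. RFX5 had 5.68 and 4.04 FPKM in leptin overexpression and 7.70 and 7.87 FPKM in WT. RFXANK had 18.2 and 19.1 FPKM in leptin overexpression and 29.1 and 12.7 FPKM in WT. RFXAP, an assembled row that the table describes from another mammal, had 2.50 and 4.14 FPKM in leptin overexpression and 6.92 and 4.05 FPKM in WT. In CPM the groups of all 3 overlapped, and their log2 fold changes were -0.30 (RFX5), 0.33 (RFXANK) and -0.26 (RFXAP).

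**Figure D3:**
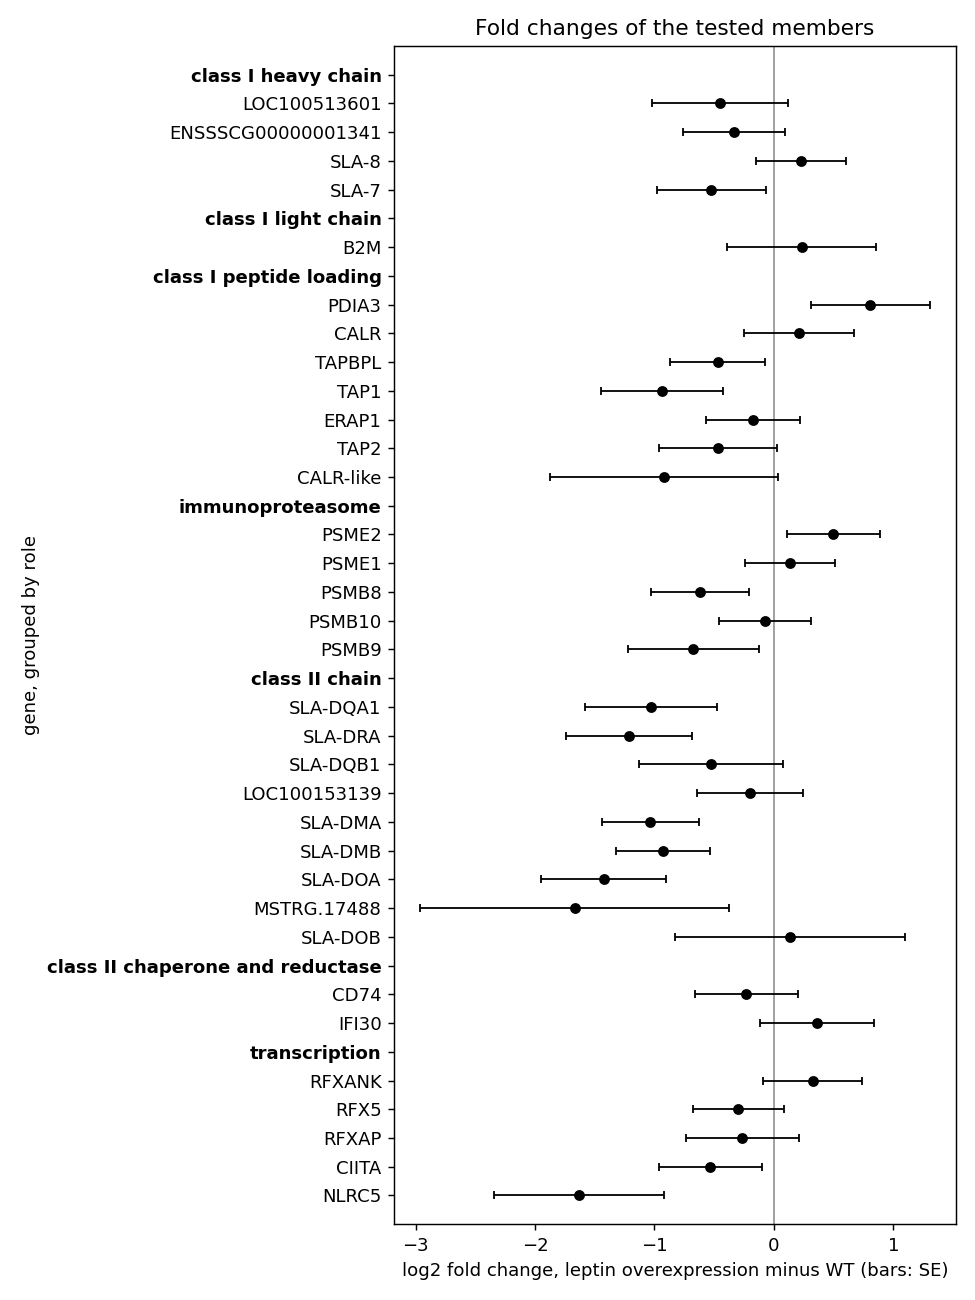
Log2 fold change (leptin overexpression minus WT, edgeR) of each of the 33 tested members, with bars for 1 SE, grouped by role; the vertical line marks 0. All class II chains except SLA-DOB lie below 0, from -1.67 for MSTRG.17488 to -0.20 for LOC100153139, and PDIA3 is the highest member at 0.81.

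The rule set class I against class II in all 4 libraries. Class I heavy chains summed to 319 and 176 FPKM in leptin overexpression and 351 and 489 FPKM in WT. Class II chains summed to 316 and 103 FPKM in leptin overexpression and 432 and 493 FPKM in WT. In FPKM both sums were lower in both leptin overexpression libraries than in both WT libraries, and both were lowest in leptin overexpression replicate 2. In CPM the class I sums overlapped, at 1452 and 868 in leptin overexpression and 1022 and 2081 in WT. The class II sums in CPM were 673 and 289 in leptin overexpression and 688 and 1088 in WT, which left a narrow margin between leptin overexpression replicate 1 and WT replicate 1.

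The ratio of class I to class II was 1.01 and 1.71 in leptin overexpression and 0.814 and 0.991 in WT. The groups did not overlap, but leptin overexpression replicate 1 and WT replicate 2 differed little. The mean log2 ratio was higher in leptin overexpression by 0.55, where the spread between replicates was 0.40 (pooled SD, n = 2 each). Without leptin overexpression replicate 2 the difference was 0.17, and without leptin overexpression replicate 1 it was 0.93. With 2 samples a group the smallest 2-sided p of an exact permutation test is 0.333, so the ratio was not tested.

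**Figure D4:**
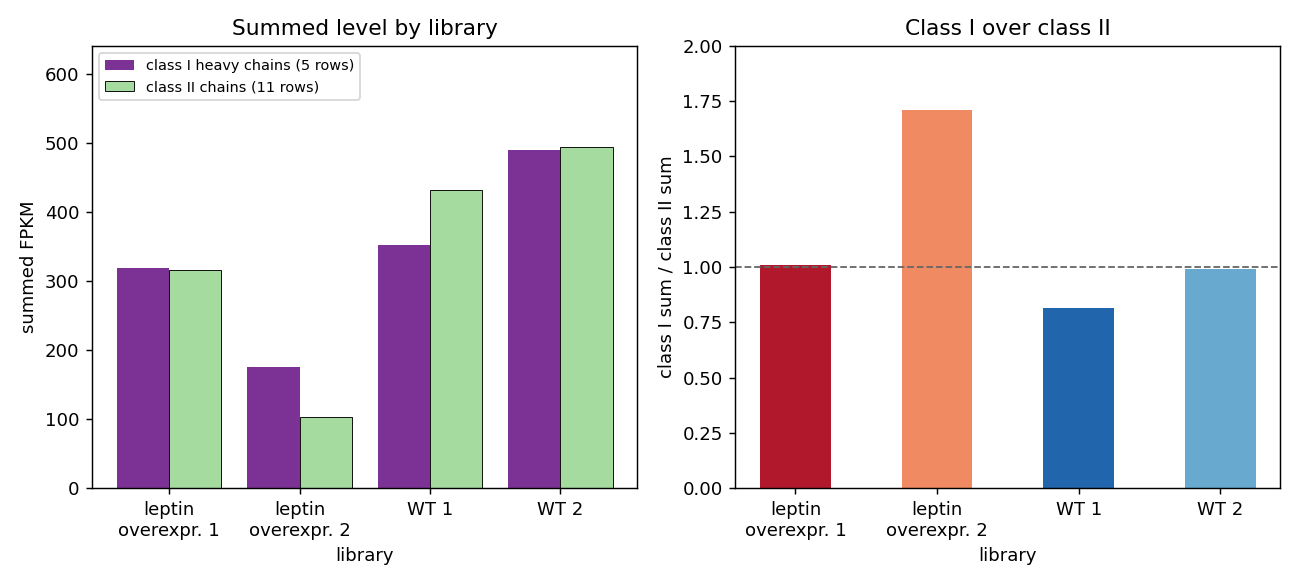
Left, summed FPKM of the 5 class I heavy chain rows and the 11 class II chain rows in each library; right, the class I sum divided by the class II sum, with a dashed line at 1. The ratio is 1.01 and 1.71 in the leptin overexpression libraries and 0.814 and 0.991 in the WT libraries.

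Many members had their lowest value in the same leptin overexpression library and their highest in the same WT library. Leptin overexpression replicate 2 had the lowest CPM for 21 of the 33 members, against 34.3% of all genes, and for 8 of the 9 class II chains. It lay below leptin overexpression replicate 1 for all 11 tested class II members and for 9 of the 17 class I members. WT replicate 2 was the highest library for 18 of the 33 members, against 22.7% of all genes, and WT replicate 1 for 6, against 28.5%. The median log2 fold change of the class II members, CD74 and IFI30 included, was -0.93 over all libraries and -0.45 without leptin overexpression replicate 2. That of the class I members was -0.34 over all libraries, -0.08 without leptin overexpression replicate 2 and 0.11 without WT replicate 2. With each library left out in turn, 6 to 9 of the 9 class II chains lay below 0, and SLA-DOB, SLA-DQB1 and LOC100153139 changed sides.

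Of a stretch of neighbouring members, all but SLA-DOB had log2 fold changes below 0. In the RefSeq annotation (Sscrofa11.1), SLA-DOB, TAP2, PSMB8, TAP1, PSMB9, SLA-DMB, SLA-DMA and SLA-DOA lie in this order on chromosome 7. BRD2, a chromatin reader that is no antigen presentation gene, and a further annotated gene lie between PSMB9 and SLA-DMB. SLA-DOB at one end and SLA-DOA at the other had log2 fold changes of 0.14 and -1.43. The SLA-DOB value had an SE of 0.96 and ranged from -1.13 to 1.80 with each library left out. The members between them had values from -0.47 (TAP2) to -1.03 (SLA-DMA), and TAP2 turned to 0.16 without WT replicate 2. BRD2 had 45.0 and 24.0 FPKM in leptin overexpression and 64.7 and 55.1 FPKM in WT, with a log2 fold change of -0.40 (SE 0.43, adjusted p 0.753 by edgeR).

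Most markers of professional antigen-presenting cells also had lower values in leptin overexpression. Of 20 tested markers, 17 had log2 fold changes below 0, with a median of -0.44, and in 6 the groups did not overlap, which is 30.0% of them against 22.9% of all genes. The median was -0.29 without leptin overexpression replicate 2 and -0.17 without WT replicate 2. Their summed FPKM was 294 and 217 in leptin overexpression and 528 and 479.7 in WT, so the groups did not overlap. LYZ was listed at 0 in all 4 libraries. C1QB and C1QC, complement genes of tissue macrophages, were the most abundant, with 82.9 and 62.4 FPKM (C1QB) and 81.4 and 45.9 FPKM (C1QC) in leptin overexpression, against 118 and 139 FPKM (C1QB) and 88.6 and 141 FPKM (C1QC) in WT. edgeR and DESeq2 called 0 of these markers, and limma-trend on FPKM called 1, as lower, where it called 2.68% of all genes as lower. An unadjusted edgeR p under 0.05 was found for 2 of the 20, against 5.32% of all genes as lower and 4.04% as higher. The part of the markers in the class II values was not tested.

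**Figure D5:**
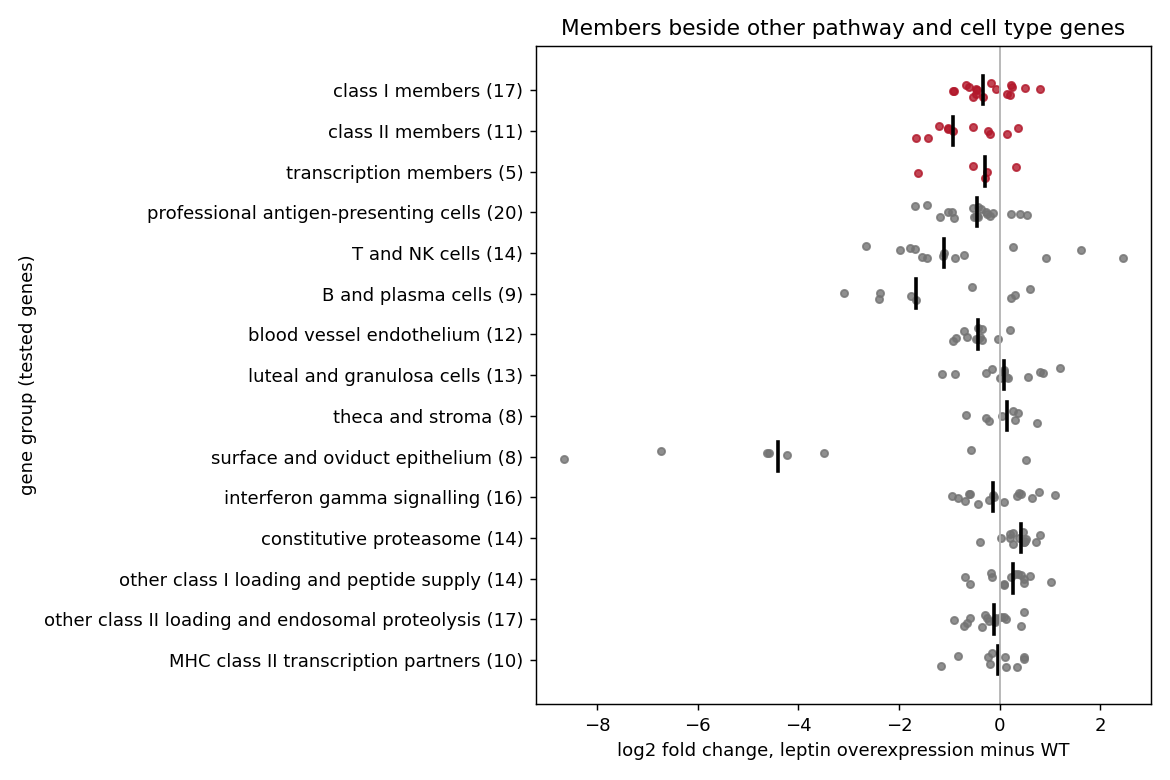
Log2 fold change (leptin overexpression minus WT, edgeR) of every tested gene of the members (red) and of the other pathway and cell type lists (grey), with the number of tested genes in parentheses; the black bar is the median of a list and the vertical line marks 0. The median is -0.93 for the class II members, -0.34 for the class I members, -0.44 for the antigen-presenting cell markers and 0.42 for the constitutive proteasome.

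Lymphocyte markers were scarce. T and NK cell markers summed to 20.4 and 20.3 FPKM in leptin overexpression and 34.7 and 40.7 FPKM in WT, with 10 of 14 below 0 and a median of -1.11, or -0.46 without WT replicate 2 and -1.68 without WT replicate 1. NKG7, a granule protein of killer cells, had 3.56 and 4.12 FPKM in leptin overexpression and 16.8 and 6.88 FPKM in WT, and CD247, a chain of the T cell receptor complex, had 5.48 and 3.57 FPKM in leptin overexpression and 3.49 and 6.77 FPKM in WT. B and plasma cell markers had 6 of 9 below 0 and a median of -1.66. In CPM, 6 were lower without overlap (66.7%, against 22.9% of all genes) and 1, XBP1, was higher without overlap (against 22.2%). The median was -0.84 without leptin overexpression replicate 2 and -1.06 without WT replicate 2. XBP1, which is active in secretory cells of many kinds, made up most of their sum, with 174 and 160.2 FPKM in leptin overexpression and 206 and 156 FPKM in WT. In CPM it had 382 and 406 in leptin overexpression and 314 and 329 in WT, with a log2 fold change of 0.29. CD3G, a T cell receptor chain, was listed at 0 in all libraries but WT replicate 1, and POU2AF1, a B cell factor, in all but WT replicate 2. JCHAIN, the joining chain of secreted antibodies, had 2.13 and 4.41 FPKM in leptin overexpression and 24.8 and 37.6 FPKM in WT, a log2 fold change of -2.41 (SE 0.51) with an adjusted p of 0.218 by edgeR and 0.00195 by DESeq2.

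Endothelial cells of some species bear class II molecules, and endothelial markers had 11 of 12 values below 0, with a median of -0.44. That median turned to 0.02 without WT replicate 2, was -0.08 without leptin overexpression replicate 2, and was -1.13 and -0.83 without leptin overexpression replicate 1 and WT replicate 1. In CPM, 2 of the 12 were lower without overlap (16.7%, against 22.9% of all genes). PECAM1 had 54.8 and 33.4 FPKM in leptin overexpression and 94.1 and 87.8 FPKM in WT, and EGFL7 had 42.3 and 24.4 FPKM in leptin overexpression and 31.2 and 69.8 FPKM in WT. Markers of surface and oviduct epithelium lay further from 0, with 7 of 8 below 0 and a median of -4.41. In CPM, 7 were lower without overlap (87.5%, against 22.9% of all genes). Their sum was 13.9 and 41.1 FPKM in leptin overexpression and 352 and 152 FPKM in WT. OVGP1, the oviduct secretory glycoprotein, had 0.01 and 0.48 FPKM in leptin overexpression and 204 and 88.0 FPKM in WT, while KRT7, a keratin, had 10.2 and 9.57 FPKM in leptin overexpression and 25.6 and 15.1 FPKM in WT. FOXJ1, a factor of ciliated cells, was listed at 0 in leptin overexpression replicate 1 and had 22.4 and 3.80 FPKM in WT. The part of these markers in the values of the members was not tested.

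Markers of steroid-making cells and stroma lay on both sides of 0. Luteal and granulosa cell markers had 5 of 13 below 0 and a median of 0.09, and theca and stroma markers had 3 of 8 below 0 and a median of 0.15. The luteal and granulosa median was 0.69 without WT replicate 2, 0.38 without leptin overexpression replicate 2 and -0.09 without WT replicate 1, and that of theca and stroma was 0.05 to 0.32 with each library left out. STAR, which delivers cholesterol for steroid synthesis, had 5646 and 7089 FPKM in leptin overexpression and 3465 and 5580.1 FPKM in WT. HSD3B1, a steroid dehydrogenase, had 4754 and 4085 FPKM in leptin overexpression and 5028 and 5319.7 FPKM in WT. In CPM the groups of HSD3B1 overlapped, at 8495 and 8354 in leptin overexpression and 6217 and 8812 in WT. Its log2 fold change was 0.16. COL3A1, a collagen, had 1531 and 774 FPKM in leptin overexpression and 946 and 876 FPKM in WT, and CYP17A1, the androgen-making enzyme of theca cells, had 415 and 146 FPKM in leptin overexpression and 112 and 911 FPKM in WT.

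Interferon gamma is the main inducer of both MHC classes. IFNG was listed at 0 in all 4 libraries. Of 16 tested genes of its signalling, 9 were below 0, with a median of -0.13, which turned to 0.10 without WT replicate 2. In CPM, both leptin overexpression libraries lay below both WT libraries for 6 of the 16, which is 37.5% against 22.9% of all genes. They lay above for 3, against 22.2% of all genes. SOCS3, a feedback inhibitor of cytokine signalling, had 175 and 41.7 FPKM in leptin overexpression and 29.4 and 117 FPKM in WT. Its groups overlapped, and its log2 fold change of 0.79 lay on the other side of 0 from the median.

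The remaining pathway lists had medians between -0.12 and 0.42. The list called constitutive proteasome held mostly core subunits that the immunoproteasome shares, with an activator and an assembly factor besides. It had 1 of 14 below 0, the activator, and a median of 0.42. Beside it, 3 of 5 immunoproteasome members were below 0, with a median of -0.07. The lists thus do not set the replaceable subunits of the 2 forms against each other. The constitutive median was 0.09 without leptin overexpression replicate 2 and -0.01 on the FPKM scale. PSMB4 had 182 and 202 FPKM in leptin overexpression and 238 and 195 FPKM in WT, with a log2 fold change of 0.26. The row with the symbol PSMA6 carried the description of another gene and is uncertain. Other class I loading genes had 4 of 14 below 0, with a median of 0.27 (0.09 without leptin overexpression replicate 2 and 0.13 without WT replicate 1), and included HSPA5, the chaperone BiP, and BCAP31, a cargo receptor, with log2 fold changes of 0.48 and 0.37.

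Other genes of class II loading and endosomal proteolysis had 12 of 17 below 0 and a median of -0.12, with single genes from -0.91 to 0.48. Without leptin overexpression replicate 2 this median was 0.00922. In CPM, 3 of the 17 were lower without overlap (17.6%, against 22.9% of all genes) and 2 were higher (against 22.2%). CD63, a tetraspanin of late endosomes, and CST3, an inhibitor of cathepsins, had log2 fold changes of 0.48 and -0.36. Partners of CIITA and the RFX complex in class II transcription had 5 of 10 below 0 and a median of -0.03, with single genes from -1.17 to 0.49, and included SMARCA4, a chromatin remodeller, and NFYC, a subunit of the promoter factor NF-Y, with log2 fold changes of -0.23 and -0.20. Over all 12 lists of other genes, with 165 matched entries, edgeR called 0 genes. DESeq2 called 6, where it called 1.47% of all genes as lower and 0.718% as higher. Of the 6, 5 were epithelial markers and the other was JCHAIN, and all 6 were lower in leptin overexpression.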

How the data were processed

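The authors deposited expected counts, that is estimated counts per gene, with no scaling to library size. The FPKM values were made by the authors and scaled to transcript length and fragment number, per the file headers. Tools named in the submitters' processing notes, without roles, were RSEM, edgeR 3.32.0, DESeq2, StringTie 1.3.1, HISAT2, fastp 0.18.0 and Bowtie2 2.2.8. No coordinates are printed, because the genome build is not given in the sources used here. Strand use is not stated either, and overlapping or antisense genes may share reads.

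Expected counts were rounded. edgeR's filterByExpr left 13937 genes and removed 8372. The groups were compared with edgeR 4.0.16 (limma 3.58.1, R 4.3.3): TMM factors (0.926 and 0.809 in leptin overexpression, 1.34 and 0.999 in WT), the robust quasi-likelihood test, 2 residual degrees of freedom, and Benjamini-Hochberg adjustment over all genes called at 0.05. Where no other tool is named, adjusted p-values come from this test. The SE was taken as the size of the log2 fold change over the root of the F statistic. The fit was tested on simulated data. Implied transcript length was the ratio of expected count to FPKM, set relative to WT replicate 1 and to the library's median ratio. Intervals were not computed, and small counts carry counting error beside the spread shown.

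The members and the 12 lists of other genes (175 entries, 165 matched) were chosen with earlier results of these data known. All members, LEP, and of each list the genes past the threshold or, where none passed, the 2 with the highest mean FPKM were named. 1 gene that this rule selects is not reported here. BRD2, IFNG, LYZ, CD3G, POU2AF1, FOXJ1, KLRK1 and GZMA were named in addition, after their values were seen. CD74 and TAP2 were named through the gene name table. Alternatives tried were DESeq2 1.42.0, limma-trend on log2(FPKM + 1), other factors (RLE, upper-quartile), other filters (none, 1 CPM in 2 libraries), a replicate block, and leaving out each library. Counts of values below 0 without each library were added after the data had been seen.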

Additional observations from a re-analysis of the deposited data

How the results depend on the processing

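The count of 0 members called held under RLE and upper-quartile factors, no filter, 1 CPM in 2 libraries, DESeq2, the replicate block and with each library left out. limma-trend on log2(FPKM + 1) called 3. Adjusted p-values under the other alternatives were 0.223 to 1.00 for SLA-DRA, 0.216 to 1.00 for SLA-DQA1 and 0.213 to 1.00 for SLA-DMA, the lowest without leptin overexpression replicate 1 and the highest without replicate 2. With each library left out, the median of the class II members was -1.35 to -0.45 and the class I over class II difference was 0.17 to 0.93. With 2 libraries a group, leaving 1 out cannot move that difference by more than the pooled spread between replicates. Staying within the spread is therefore no sign of stability there. Under the other alternatives, the class II median and the difference also stayed within the spread between replicates. The class I median was -0.70 under limma-trend on FPKM and -0.53 to 0.11 with each library left out. Over all genes, 4 were called, against 11 with upper-quartile factors, 252 with no filter, 305 with DESeq2, 464 with limma-trend, and 0 to 681 with each library left out. Of the genes of the other lists, 0 were called, against 1 with upper-quartile factors, 5 with no filter, 6 with DESeq2, 11 with limma-trend and 0 to 10 with each library left out. A group left with a single library is assumed to vary like the other group, with 1 residual degree of freedom.

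The labels do not tie the replicate numbers of the groups to each other, and deviations from the group means of same-numbered libraries correlated at -0.0995 across 13937 genes. With the replicate number as a block, 23 genes and 0 members were called. The class I over class II difference of 0.55 is the same with the block by arithmetic, because each block holds 1 library of each group.

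Under limma-trend on FPKM, where the median gene lies at -0.30, the sign turned for SLA-8 (-0.17), B2M (-0.0765), CALR (-0.21), PSME1 (-0.29), SLA-DOB (-0.0594) and RFXANK (-0.0479), none of them called. With each library left out, log2 fold changes changed sign within a range of -0.92 to 0.18 for LOC100513601, -0.0182 to 0.47 for SLA-8, -0.39 to 1.25 for B2M, -0.53 to 0.22 for ERAP1, -1.02 to 0.16 for TAP2, -2.05 to 0.97 for CALR-like, -0.0769 to 0.34 for PSME1, -0.22 to 0.0427 for PSMB10, -1.44 to 0.29 for SLA-DQB1, -0.80 to 0.25 for LOC100153139, -1.13 to 1.80 for SLA-DOB, -0.13 to 1.06 for IFI30, -0.0357 to 0.74 for RFXANK and -0.77 to 0.14 for RFXAP. Under RLE and upper-quartile factors, the other filters, DESeq2 and the block, all 33 tested members kept their sign. The causes were not tested. The other tested members kept their sign with each library left out, though their size moved. The ranges were -1.73 to -1.15 for SLA-DOA, -1.35 to -0.75 for SLA-DMA and -1.25 to -0.57 for SLA-DMB. They were -3.15 to -0.90 for NLRC5 and 0.50 to 1.13 for PDIA3. With 2 libraries a group, many of the differences seen here lie within the reach of 1 library.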
